A study of Mus musculus with 2 samples.

Results

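Bcl6, Rgs13, Mef2b, S1pr2, Myc and Cd83 are 6 genes tied to the germinal centre and to the activation of B cells, taken here by symbol from the 32285 genes counted in both libraries. The study profiled immune cells that had entered the inflamed colon in a mouse model of colitis, by single-cell RNA sequencing with the 10x 3′ kit, which tags each captured transcript with a unique molecular identifier (UMI). There was 1 library labelled WT and 1 labelled CKO, both from C57BL/6 mice. The study concerns RPA1, a subunit of the complex that coats single-stranded DNA, and the sources used here do not give the deleted exons, the cells that lack the gene, the agent that caused colitis, or the age and number of the mice. Each label is represented by a single library, so the label cannot be told apart from the animal, the preparation and the run, and no test between libraries was possible. All intervals below are exact 95% intervals that cover counting error only, and the share that a count of 0 is said to allow is 3 counts of the total.

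Germinal centres are the sites within lymphoid follicles, including those of the gut, where activated B cells divide, mutate their antibody genes and are selected. BCL6 is the transcriptional repressor on which germinal centre B cells depend, and MEF2B is a transcription factor active in the same cells that helps to drive Bcl6. RGS13 dampens signals of chemokine receptors, S1PR2 holds B cells in the germinal centre, MYC marks cells licensed to divide, and CD83 is a surface protein of activated B cells and mature dendritic cells that stabilises class II molecules.

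B cells were taken as barcodes with at least 3 UMIs summed over Cd79a, Cd79b and Ms4a1 and fewer than 20 UMIs of Jchain, the joining chain of secreted antibody. By this rule 1333 of 2925 retained barcodes (45.6%) in the WT-labelled library and 5011 of 11155 (44.9%) in the CKO-labelled library were B cells, with median depths of 4192 and 3135 UMIs. Cycling B cells, those with at least 2 UMIs of Mki67 and Top2a, numbered 58 (4.35%, 3.32 to 5.59) and 116 (2.31%, 1.92 to 2.77). A further 4 B cell genes that the rule did not use (Pax5, Cd22, Cd37 and Fcmr) summed to 1213 and 1074 counts per 1e+06 UMIs of the class (CPM) in B cells against 110.3 and 113 CPM in T-like cells. Transcripts of other cells were also present in the B cells. The 4 neutrophil check genes (S100a8, S100a9, Ngp and Mmp9) summed to 532 CPM in the WT-labelled and 3615 CPM in the CKO-labelled library, with Ngp at 0 UMIs in the WT-labelled one, T cell genes (Trac, Trbc1, Trbc2 and Cd5) to 198 and 66.9 CPM, and 3 macrophage genes (Lyz2, Cd14 and Apoe), of which the first 2 are also made by neutrophils, to 1083 and 1625 CPM. Rpa1 was counted at 42.6 and 51.2 CPM in T-like cells (log2 ratio 0.27, -0.12 to 0.66) and at 31.2 and 26.6 CPM in B cells (-0.23, -0.46 to 0.01), so its 3′ counts did not tell the labels apart and libraries are named below by their labels. A count at the 3′ end can lie outside a deleted part. The libraries shared 6 barcodes, of which 3 were B cells in both.

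All 6 genes are on the GRCm38 (mm10) mouse genome. In GENCODE vM21, Bcl6 (ENSMUSG00000022508) runs from 23965052 to 23988852 on the minus strand of chromosome 16, Rgs13 (ENSMUSG00000051079) from 144138654 to 144177372 on the minus strand of chromosome 1, and S1pr2 (ENSMUSG00000043895) from 20962361 to 20976781 on the minus strand of chromosome 9. Mef2b (ENSMUSG00000079033) lies on the plus strand of chromosome 8 from 70139711 to 70167488 and overlaps Borcs8 (70139499 to 70147319) on the same strand, so its counts are uncertain where the models overlap. Myc (ENSMUSG00000022346) is at 61985391 to 61990374 on the plus strand of chromosome 15 and Cd83 (ENSMUSG00000015396) at 43784775 to 43803132 on the plus strand of chromosome 13.

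Of the 6 genes, 4 had promoter entries in the RefSeq table (GRCm38.p6), and these 4 are the genes that were detected together in single cells below. The 250 bases before the start site are shown 5′ to 3′ on the strand of the gene, for the second of the 2 Bcl6 starts and for Rgs13, Mef2b and S1pr2. The Mef2b window lies within the GENCODE model given above, so its RefSeq start is not the start of that model. Capitals mark matches, on either strand, to motifs that were picked after the sequences had been read.

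Bcl6 second start, chr16:23981284-23981533, minus strand: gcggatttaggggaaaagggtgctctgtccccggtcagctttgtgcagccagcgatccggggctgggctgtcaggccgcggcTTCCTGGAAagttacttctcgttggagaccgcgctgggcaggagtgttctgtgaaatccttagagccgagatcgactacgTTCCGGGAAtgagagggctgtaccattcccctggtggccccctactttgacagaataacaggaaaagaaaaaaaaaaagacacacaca

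Rgs13, chr1:144177373-144177622, minus strand: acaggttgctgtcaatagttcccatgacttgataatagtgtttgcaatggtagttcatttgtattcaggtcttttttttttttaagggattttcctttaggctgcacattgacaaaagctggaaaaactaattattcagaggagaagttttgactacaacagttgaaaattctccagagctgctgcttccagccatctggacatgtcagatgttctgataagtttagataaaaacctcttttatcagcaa

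Mef2b, chr8:70152511-70152760, plus strand: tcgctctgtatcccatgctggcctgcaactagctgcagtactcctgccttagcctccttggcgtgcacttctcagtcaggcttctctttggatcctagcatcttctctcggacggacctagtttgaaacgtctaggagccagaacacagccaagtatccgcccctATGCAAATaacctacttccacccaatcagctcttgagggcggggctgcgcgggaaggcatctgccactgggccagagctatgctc

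S1pr2, chr9:20976794-20977043, minus strand: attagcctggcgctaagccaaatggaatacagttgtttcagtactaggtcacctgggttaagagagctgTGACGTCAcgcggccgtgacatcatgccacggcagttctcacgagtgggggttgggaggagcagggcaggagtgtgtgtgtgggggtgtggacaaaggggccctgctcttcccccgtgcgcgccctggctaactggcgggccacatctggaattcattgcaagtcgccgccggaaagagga

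The second Bcl6 promoter held 2 matches to the BCL6 motif TTCCNNGAA, the first at position -168 from the start, a motif present in 4.06% of 32851 promoters of this length. The Mef2b promoter held the octamer ATGCAAAT, the site of OCT factors, at -85 (1.60% of promoters). The S1pr2 promoter held the cyclic AMP response element TGACGTCA at -181 (1.55% of promoters). At the first Bcl6 start, not printed, an E-box CACGTG lay at -60 (6.02% of promoters). The MEF2 motif, CTA and TAG with 4 bases of any kind between them (3.202% of promoters), was not among the letters of any of these windows, and the Rgs13 window held none of the 5 motifs. The motifs did not overlap one another. A match describes the sequence and is not evidence of binding.

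In B cells, Rgs13, Mef2b and S1pr2 were far lower in the CKO-labelled library, Bcl6 and Myc were about 1.5-fold lower, and Cd83 was close to equal. At 1.5-fold, 4 of the 6 genes were lower and 0 were higher, where 9.5% of the 11686 genes with at least 20 UMIs in B cells were lower and 9.02% were higher. The median log2 ratio was -1.67 over the 6 genes and -0.06 over all genes read. The 6 genes and the gene lists below were chosen with earlier results of these data known, so such counts are descriptions.

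Rgs13 had the widest gap. Its level was 21.2 CPM (147 UMIs) in B cells of the WT-labelled library and 0.753 CPM (15 UMIs) in the CKO-labelled library, a 28.2-fold difference (log2 -4.82, -5.69 to -4.05). Mef2b stood at 18.9 CPM (131 UMIs) and 2.86 CPM (57 UMIs), 6.62-fold lower (log2 -2.73, -3.20 to -2.27). For S1pr2 the levels were 12.1 CPM (84 UMIs) and 1.56 CPM (31 UMIs), 7.80-fold lower (log2 -2.96, -3.61 to -2.35). The counting intervals of the libraries did not overlap for any of these 3 genes, nor for Bcl6 and Myc. How many of all genes had intervals apart was not counted. The intervals treat UMIs as independent, also where several came from the same cell. Without the B cells that also met the rule of another class, the ratio of S1pr2 was wider (log2 -3.87, 65 and 13 UMIs), and those of Rgs13 and Mef2b were -4.84 and -2.60. The gap was smaller with Jchain under 5 UMIs (log2 -3.03 for Rgs13, -1.48 for Mef2b and -1.70 for S1pr2). With each cell thinned to 1000 UMIs the ratios were -3.42, -1.85 and -1.78, on 14 and 5, 16 and 17, and 9 and 10 UMIs. Their intervals (-5.25 to -1.87, -2.92 to -0.77 and -3.24 to -0.31) held the unthinned ratios, so a smaller gap was not shown there.

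Bcl6 was counted at 33.7 CPM (233 UMIs) and 22.7 CPM (452 UMIs), a log2 ratio of -0.57 (-0.80 to -0.34), just inside 1.5-fold. With Jchain under 5 UMIs the Bcl6 ratio was -0.37 (-0.62 to -0.11). With each cell thinned to 1000 UMIs it was -0.30, with an interval that held 0 (-0.83 to 0.25). Myc was counted at 113 CPM (785 UMIs) and 74.0 CPM (1474 UMIs), 1.53-fold lower (log2 -0.62, -0.74 to -0.49). Cd83 was counted at 329 CPM (2273 UMIs) and 315 CPM (6268 UMIs), with a log2 ratio of -0.06 and an interval that held 0 (-0.13 to 0.01), and with no J chain limit on B cells the ratio was 0.20. Other alternatives gave intervals just below 0. These were Jchain under 5 UMIs (-0.15 to -0.004), a B gene minimum of 5 UMIs (-0.16 to -0.01) and thinning (-0.33 to -0.04). Leaving out B cells that met another class rule did so too (-0.150 to -0.0003). The interval still held 0 with all deposited barcodes (-0.13 to 0.01). Cd83 was thus nearly level while Rgs13, Mef2b and S1pr2 were not.

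**Figure D1:**
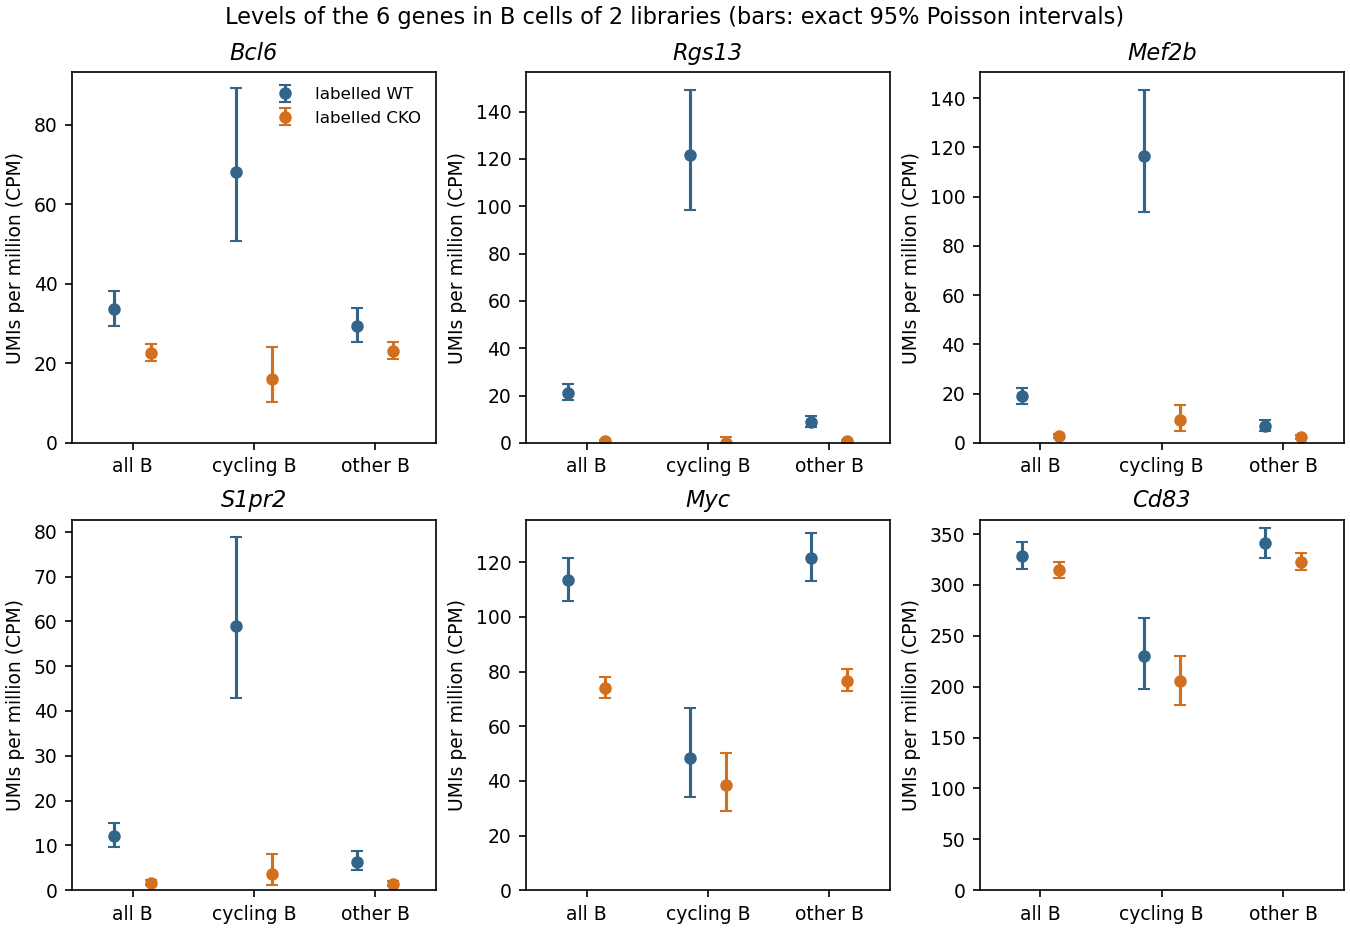
Level of each gene in CPM (linear axis from 0) in all B cells, cycling B cells and other B cells of each library, with exact 95% Poisson intervals. In cycling B cells Rgs13 sits at 121.8 CPM in the WT-labelled library and at 0 in the CKO-labelled library, while the intervals of Cd83 overlap there.

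For the 4 germinal centre genes the gap was wider in cycling B cells than in the other B cells, a difference that was not tested. In the WT-labelled library 22.3% of the Bcl6, 63.3% of the Rgs13, 67.9% of the Mef2b and 53.6% of the S1pr2 UMIs of B cells came from the 58 cycling cells, against 4.71% of the Myc and 7.74% of the Cd83 UMIs. Rgs13 was at 121.8 CPM (93 UMIs in 18 cells) in cycling B cells of the WT-labelled library. In those of the CKO-labelled library it had 0 UMIs. With 3 counts for the whole class as the floor this was 57.9-fold lower, and the log2 interval reached up to -5.53. Mef2b was at 116.5 against 9.11 CPM (89 and 13 UMIs; log2 -3.68, -4.64 to -2.83), and S1pr2 at 58.9 against 3.50 CPM (45 and 5 UMIs; -4.07, -5.76 to -2.74). Bcl6 was at 68.1 against 16.1 CPM (52 and 23 UMIs), a log2 ratio of -2.08 (-2.85 to -1.35), larger than in all B cells. The intervals held 0 for Myc (48.4 and 38.5 CPM; log2 -0.33, -0.96 to 0.31) and Cd83 (230.4 and 205 CPM; -0.17, -0.44 to 0.11). In cycling B cells 15% of 7741 genes read were lower and 18.1% higher at 1.5-fold, and 4 of the 6 genes were lower. Median depths of cycling B cells were 12102.5 and 10369 UMIs. The 4 neutrophil genes summed to 14.4 CPM in cycling B cells of the WT-labelled library (2 of the 4 detected) and 1803 CPM in those of the CKO-labelled library, the 3 macrophage genes to 780.3 and 2423 CPM, and their part in these ratios was not tested.

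Within the WT-labelled library, cycling B cells had higher levels of the 4 germinal centre genes than other B cells and lower levels of Myc and Cd83. The log2 ratio of cycling over other B cells was 3.80 for Rgs13, 4.09 for Mef2b, 3.22 for S1pr2 and 1.21 for Bcl6 (0.74 to 1.66). It was -1.33 for Myc and -0.56 for Cd83. Of 9592 genes read in this comparison, 24.2% were at least 1.5-fold higher and 19.1% lower. In the CKO-labelled library (27.7% higher and 15.2% lower of 11165 genes) Mef2b was also higher in cycling cells (log2 1.94, 0.92 to 2.86). The intervals held 0 there for S1pr2 (1.32, -0.42 to 2.72) and Bcl6 (-0.53, -1.20 to 0.08), and Rgs13 had no UMI in cycling cells. Myc (-0.99) and Cd83 (-0.65) were again lower in cycling than in other B cells.

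In B cells that were not cycling Rgs13, Mef2b, S1pr2 and Myc were lower at 1.5-fold. Rgs13 was at 8.77 against 0.811 CPM (54 and 15 UMIs; log2 -3.44), Mef2b at 6.82 against 2.38 CPM (42 and 44 UMIs; -1.52) and S1pr2 at 6.34 against 1.41 CPM (39 and 26 UMIs; -2.17). Myc was at 121.5 against 76.7 CPM (log2 -0.66, -0.79 to -0.53), Bcl6 at 29.4 against 23.2 CPM (-0.34) and Cd83 at 341 against 323 CPM (-0.08). Here 8.24% of 11423 genes were lower and 8.91% higher at 1.5-fold.

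The transcripts were concentrated in few cells of the WT-labelled library. At least 3 UMIs of Rgs13 were found in 21 of 1333 B cells of the WT-labelled and 0 of 5011 of the CKO-labelled library (up to 10 and 2 UMIs per cell). For Mef2b these counts were 16 and 0 cells, for S1pr2 11 and 0, and for Bcl6 14 and 3. Myc (99 and 125 cells) and Cd83 (331 and 795 cells) were spread widely in both libraries. The share of cells with a UMI, after each B cell was thinned at random to 1000 UMIs, was 13 of 1300 and 5 of 4977 cells (0.100%) for Rgs13, and 1.15 and 0.321% for Mef2b and 0.692 and 0.201% for S1pr2. It was 39 of 1300 cells and 2.39% for Bcl6, 9.46 and 6.53% for Myc, and 28.5 and 26.6% for Cd83. Thinning left out 33 and 34 shallower B cells, and the shares before it were 3.45 and 0.279% for Rgs13, 4.50 and 1.08% for Mef2b, 3.23 and 0.599% for S1pr2, 12.7 and 8.02% for Bcl6, 28.7 and 18.0% for Myc and 65.2 and 57.1% for Cd83. In thinned T-like cells, a class that should lack them, Rgs13 and Mef2b were found in 0 of 333 and 0 of 572 cells, which allows up to 0.901 and 0.524%. The thinned shares of both genes in B cells did not stand clear of these limits: the WT-labelled intervals (0.534 to 1.70% for Rgs13 and 0.647 to 1.90% for Mef2b) reached below 0.901%, and the CKO-labelled shares lay below 0.524%. S1pr2 was found in 0.601% of T-like cells of the WT-labelled library, so after thinning its share in B cells there (interval 0.317 to 1.31%) did not stand above T-like cells beyond counting error, and in 0 of 572 of the CKO-labelled library. Bcl6, which T cells also express, was found in 11 of 333 and 11 of 572 T-like cells, Myc in 14 and 20 of them and Cd83 in 11 and 20. Those T-like cells had median depths of 4757 and 4327 UMIs before thinning. The limits for counts of 0 follow from the number of T-like cells. In CPM at full depth, Rgs13 in the WT-labelled library spanned 18.0 to 25.0 in B and 0.0127 to 2.79 in T-like cells. Mef2b spanned 15.8 to 22.5 and 0.121 to 3.62 there, and 2.17 to 3.71 and 0.00801 to 1.76 in the CKO-labelled library. The intervals of Rgs13 in the CKO-labelled library (0.421 to 1.24 and 0 to 1.17) overlapped.

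The 4 germinal centre genes were found together in the same B cells of the WT-labelled library. Of its 46 B cells with Rgs13, 63.0% also had Mef2b, 47.8% S1pr2 and 54.4% Bcl6, against 2.41, 1.63 and 11.2% of the 1287 B cells without Rgs13. The cells with Rgs13 were deeper, at a median of 8464 against 4119 UMIs. Myc did not follow this pattern: 23.9% of cells with Rgs13 and 28.9% of the others had a UMI of it. Myc and Cd83 went together instead, since 78.9% of WT-labelled B cells with Myc had Cd83 against 59.7% of those without, at depths of 4786 and 3953 UMIs. In the CKO-labelled library 14 B cells had Rgs13, of which 1 had Mef2b, 1 had S1pr2 and 2 had Bcl6. All 4 genes were found in 17 B cells of the WT-labelled and 1 of the CKO-labelled library, and 3 of the 4 genes in 14 cells and 0 cells, where 0 of 5011 allows up to 0.0599%.

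**Figure D2:**
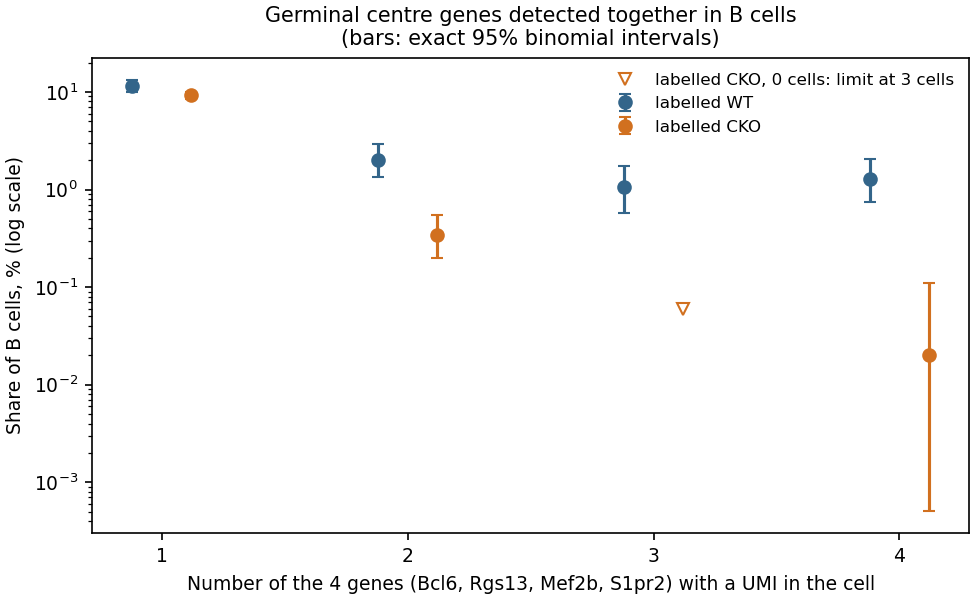
Share of B cells (percent, log axis) in which 1, 2, 3 or 4 of Bcl6, Rgs13, Mef2b and S1pr2 had a UMI, with exact 95% binomial intervals; the open triangle is the limit that 0 cells allow. Shares with 1 gene lie near each other (11.6 and 9.22%), and shares with 4 genes at 1.28 and 0.0200%.

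J chain content mattered for where these cells were counted, since the B cell rule sets a limit on it. Among cells that met the B gene minimum, those with 5 to 19 Jchain UMIs had the highest levels of Rgs13, Mef2b, S1pr2 and Bcl6 in the WT-labelled library. Rgs13 was at 105.6 CPM there (113 UMIs in 219 cells), against 5.81 CPM in the 1114 cells with 0 to 4 Jchain UMIs and 12.9 CPM in the 362 cells with 20 or more, which the rule counts as plasma-like. UMIs of at least 2 of Rgs13, Mef2b and S1pr2 were found in 27 of the 219 cells (12.3%, 8.28 to 17.4), in 15 of the 1114 (1.35%, 0.756 to 2.21) and in 18 of the 362 (4.97%, 2.97 to 7.74). The CKO-labelled library held 46 cells with 5 to 19 Jchain UMIs, of which 1 met this criterion (2.17%, 0.0550 to 11.5). None of its 4965 cells with 0 to 4 Jchain UMIs met it, and 4 of its 525 with 20 or more did (0.762%, 0.208 to 1.94). With no limit on Jchain the log2 ratios were -5.08 for Rgs13, -2.17 for Mef2b and -2.03 for S1pr2.

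**Figure D3:**
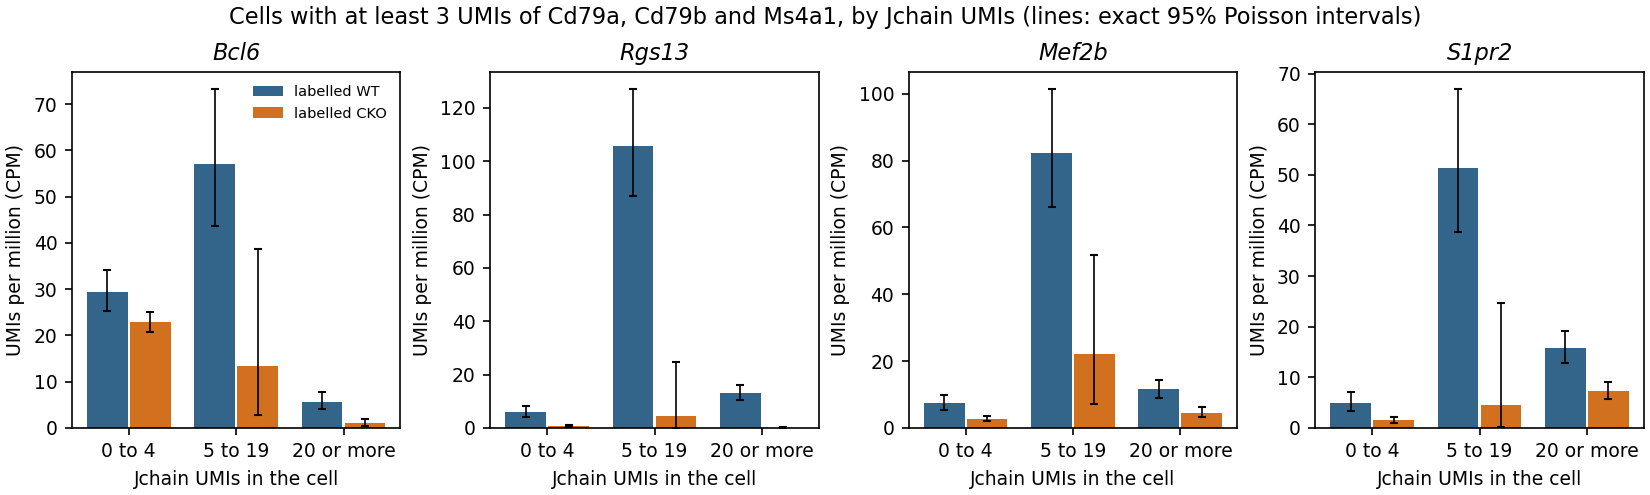
Level in CPM (linear axis from 0, exact 95% Poisson intervals) of 4 genes in cells with at least 3 UMIs of Cd79a, Cd79b and Ms4a1, split by Jchain UMIs per cell, in both libraries. Rgs13 peaks at 105.6 CPM in WT-labelled cells with 5 to 19 Jchain UMIs and is at 4.42 CPM in the same group of the CKO-labelled library.

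To see what else such cells expressed, B cells with at least 2 UMIs over Bcl6, Rgs13, Mef2b and S1pr2 were set against the other B cells of the same library. They numbered 86 (6.45% of B cells, 5.19 to 7.91) in the WT-labelled and 65 (1.30%, 1.002 to 1.65) in the CKO-labelled library. The criterion was not particular to B cells. T-like cells met it at 4.18% (2.30 to 6.91) and 1.92% (0.960 to 3.40), intervals that overlapped those of B cells. Neutrophil-like cells met it at 0 of 125 and at 0.880%, and CKO-labelled monocyte and macrophage-like cells at 2.31%. UMIs of at least 2 of Rgs13, Mef2b and S1pr2 were found in 3.15 and 0.0200% of B cells and in 0 T-like cells. The sets of 86 and 65 B cells differed in make-up. In the WT-labelled set 76.7% of cells had Rgs13, Mef2b or S1pr2, and Bcl6 gave 27.5% of the 469 UMIs of the 4 genes. In the CKO-labelled set 32.3% of cells had one of the 3, and Bcl6 gave 80% of 140 UMIs. The name cells with germinal centre genes stands for the selection criterion alone. It does not identify the CKO-labelled set as germinal centre B cells. Cycling cells made up 37.2% (27.0 to 48.3) and 12.3% (5.47 to 22.8) of the sets, against 2.09 and 2.18% of the other B cells. Set cells were deeper than other B cells, with medians of 9012.5 against 4075 and 4647 against 3128 UMIs, and 22.1 and 24.6% of them also met the rule of another class. The 4 neutrophil genes summed to 284 CPM in the WT-labelled set and 7610 CPM in the CKO-labelled set, and the 3 macrophage genes to 1148 and 1689 CPM.

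Genes of the germinal centre list that the selection did not use were high in the WT-labelled set. Of 15 genes read, 12 were at least 1.5-fold higher than in the other B cells and 0 lower, with a median log2 ratio of 2.31, where 23.3% of all genes were higher and 17% lower. Mybl1, a transcription factor, was at 113.5 against 0.663 CPM, Gcsam, a signalling protein of germinal centre cells, at 52.2 against 0.828 CPM, and Nuggc, a nuclear GTPase, at 72.6 against 1.33 CPM. Fas, the death receptor, was at 73.8 against 14.9 CPM, and Polh of the dark zone list, the error-prone polymerase of somatic mutation, at 27.2 against 6.13 CPM. In the CKO-labelled set 4 of 12 genes read were higher and 1 lower (22.9 and 20% of all genes), with a median of -0.12. Gcsam had 2 UMIs there, Nuggc 9 (18.98 against 0.206 CPM) and Fas 27 (56.9 against 17.0 CPM). Between the sets Gcsam (log2 -3.63, -6.72 to -1.70) and Mybl1 (-3.43, -5.08 to -2.16) were lower in the CKO-labelled library, while the interval of Fas held 0 (-0.37, -1.08 to 0.29). The sets are unlike, since Bcl6 gave 27.5% of the UMIs used for selection in the WT-labelled and 80% in the CKO-labelled set. The part of this make-up in the ratios between sets was not tested, so they are descriptions.

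**Figure D4:**
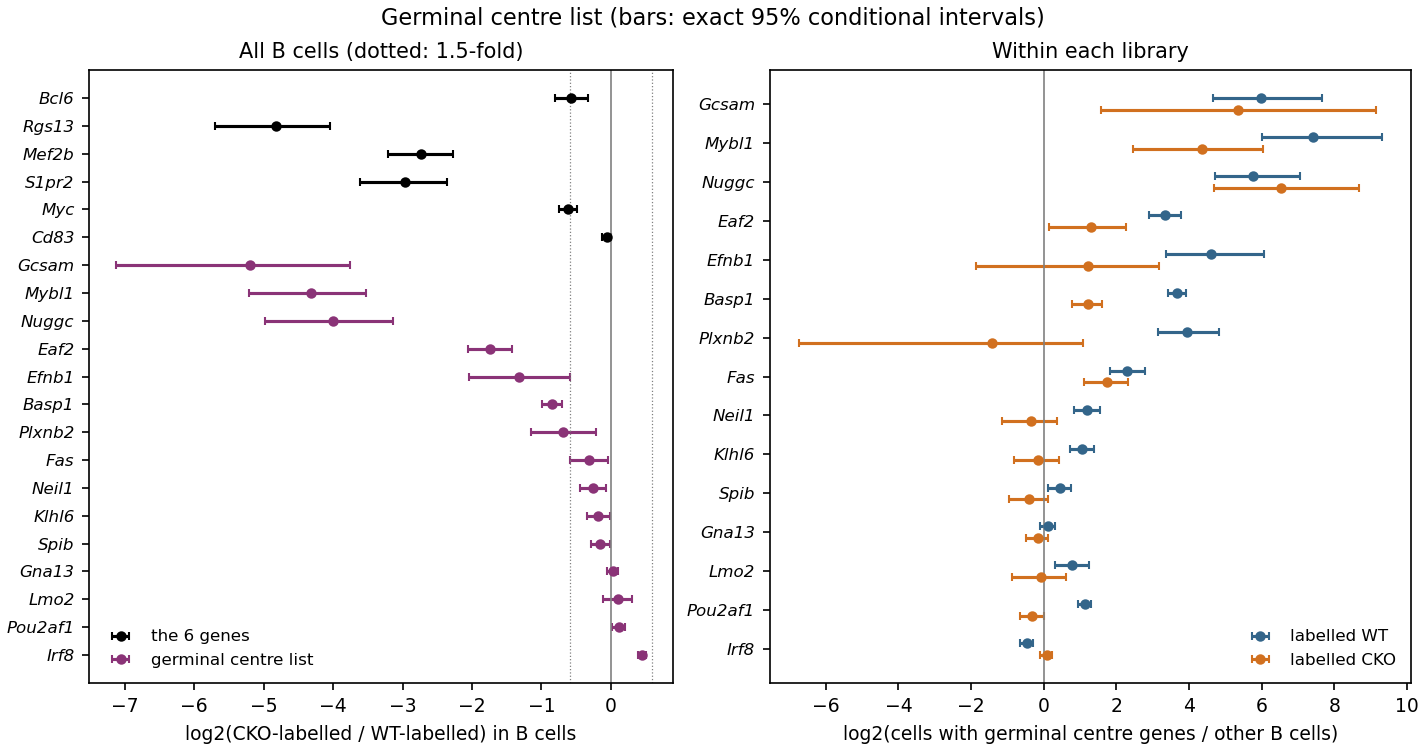
Left, log2 ratio of the CKO-labelled over the WT-labelled library in B cells for the 6 genes and 15 genes of the germinal centre list, with dotted lines at 1.5-fold; right, log2 ratio of the B cells with germinal centre genes over other B cells in each library. Bars are exact 95% conditional intervals, and Gcsam lies at -5.20 on the left and at 5.98 (WT-labelled) and 5.36 (CKO-labelled, on 2 UMIs) on the right.

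Resting and activation genes were lower in the WT-labelled set, where 17% of all genes read were lower and 23.3% higher. Ighd, the IgD constant region of naive cells, was at 113.5 against 457 CPM and Klf2 at 202 against 580 CPM, and 6 of 9 genes of the resting list were lower and 0 higher. The switched constant regions Ighg1 (283 against 16.7 CPM) and Ighg2b (524 against 45.4 CPM) were higher. Of the activation list 16 of 24 genes were lower, among them Cd69 (211 against 416 CPM) and Nr4a1 (59.0 against 218 CPM), and 1 was higher. Myc, at 61.3 against 121 CPM, and Cd83, at 228 against 343 CPM, were also lower in these cells. Of the 7 genes known to be repressed by BCL6, 4 were lower and 0 higher, such as Gpr183 (64.7 against 166.5 CPM), a receptor that guides B cells out of the follicle centre, and S1pr1 (84.0 against 168.5 CPM), the egress receptor. In the CKO-labelled set 3 of the 7 BCL6 repressed genes were higher and 1 lower, 4 of 9 resting genes were lower and 0 higher, and 8 of 19 MYC targets were higher and 0 lower. There 7 of 25 genes of the activation list were higher and 2 lower, where 22.9 and 20% of all genes were, among them Ccl3 (297 against 83.2 CPM) and Ccl4 (401 against 122 CPM). The neutrophil genes were also high in this set (7610 CPM, with Ngp at 0 UMIs, against 3615 CPM over all B cells of that library), and their part in the result was not tested.

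The 10 genes that ranked highest by the lower of their ratios in the 2 libraries, among 4862 candidates, were histone and cell division genes. They were Hist1h2ab, Hist1h3c, Cdca3, Aurkb, Tyms, Cdk1, Aspm, Cenpf, Spc24 and Hist1h2ae, with log2 ratios from 3.31 to 5.44 in the WT-labelled and from 2.45 to 3.11 in the CKO-labelled set. For Cdk1, the mitotic kinase, the levels were 60.1 against 1.99 CPM and 21.1 against 3.65 CPM.

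Without the sets, the remaining B cells of the libraries had Bcl6 at 17.2 and 17.5 CPM (log2 0.02, -0.30 to 0.35), and Rgs13 (7 and 11 UMIs), Mef2b (10 and 45) and S1pr2 (5 and 19) also had intervals that held 0. Low counts of all 4 genes are what the selection leaves, so these values are descriptions. Genes that the selection did not use were mixed. Gcsam (5 and 2 UMIs; log2 -3.01, -6.40 to -0.40), Nuggc (8 and 4 UMIs; -2.69, -4.87 to -0.79) and Eaf2 (74 and 149 UMIs; -0.68, -1.09 to -0.26) were lower in the CKO-labelled library. Basp1 (0.42, 0.21 to 0.64) and Plxnb2 (0.85, 0.13 to 1.63) were higher, and the intervals of Mybl1, Efnb1 and Fas held 0. Myc was lower (121 and 74.2 CPM; log2 -0.71, -0.84 to -0.58).

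Across all B cells, 7 of the 15 genes of the germinal centre list were lower in the CKO-labelled library and 0 higher, where 9.5 and 9.02% of all genes were, with a median log2 ratio of -0.32 against -0.06 over all genes. Gcsam was at 7.37 and 0.201 CPM (51 and 4 UMIs; log2 -5.20), Mybl1 at 15.03 and 0.753 CPM (104 and 15 UMIs; -4.32) and Nuggc at 10.4 and 0.652 CPM (72 and 13 UMIs; -4.00). The other 4 that were lower were Eaf2, Efnb1, Basp1 and Plxnb2, by 1.61 to 3.34-fold. Genes of the list that B cells outside germinal centres also express, such as Gna13 (221 and 225 CPM) and Pou2af1 (183 and 198 CPM), were near equal, and Irf8 was at 450.1 and 614 CPM (log2 0.45, 0.39 to 0.50). Fas (22.4 and 18.0 CPM), Neil1 (50.9 and 42.5 CPM) and Lmo2 (35.3 and 37.6 CPM) also stayed within 1.5-fold, as did Klhl6 and Spib.

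The paralogues of Mef2b were level. Mef2a (67.1 and 66.3 CPM), Mef2c (809.8 and 825 CPM) and Mef2d (119 and 119.9 CPM) differed by 1.02-fold at most. Of 3 S1P receptors read, S1pr3 was lower (22 and 32 UMIs) and S1pr1 (158 and 131 CPM) and S1pr4 (30.6 and 26.5 CPM) were within 1.5-fold. Among 7 RGS genes 3 were lower, Rgs1 (178 and 87.7 CPM; log2 -1.02), Rgs2 (269.7 and 175.8 CPM) and Rgs16 (13 and 23 UMIs; -0.70, -1.74 to 0.40), and 2 were higher, Rgs14 (27 and 124 UMIs) and Rgs18 (2 and 29 UMIs). Over all genes read in B cells 9.5% were lower and 9.02% higher. Without B cells that met another class rule 2 of the RGS genes were lower and 1 was higher. Rgs18 is a gene of myeloid cells and platelets, and the neutrophil transcripts in the CKO-labelled B cells are given above.

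Targets of MYC stayed within 1.5-fold, a mark that Myc itself passed only at 1.53-fold. The list held 19 genes that MYC is known to drive, such as the nucleolar and ribosome assembly genes Ncl, Npm1 and Nop56. Of these 0 were higher and 0 lower, where 9.02 and 9.5% of all genes were. Their median log2 ratio was -0.09 against -0.06 over all genes, and the ratios ran from -0.33 (Nme1) to 0.06 (Npm1). Whether the targets followed Myc by less than 1.5-fold was not tested. On the B activation list 5 of 25 genes were higher and 1 was lower, where 9.02 and 9.5% of all genes were, with a median of 0.07. Nfkbia, the inhibitor induced by NF-kB, was at 287 and 492 CPM, Icam1 at 47.3 and 72.6 CPM, Ebi3 at 3.76 and 8.23 CPM, Ccl22 at 3 and 81 UMIs and Ccl3 at 58.3 and 88.3 CPM, and Fosb was lower (360.2 and 226 CPM). Part of this count came from barcodes that met 2 class rules. Once the 9.60 and 7.52% of B cells that also met the rule of another class were left out, 1 gene of the list was higher and 2 were lower, Ccl3 was at 26.5 and 26.7 CPM and Nfkbia at 211 and 260 CPM (log2 0.30, 0.21 to 0.39).

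Among 9 genes of resting B cells 2 were lower and 0 higher, where 9.5 and 9.02% of all genes read in B cells were. Klf2, a factor of quiescent recirculating lymphocytes, was at 532 and 241 CPM (log2 -1.14), and Fcer2a, the low-affinity IgE receptor, at 108 and 62.3 CPM. Of 7 genes that BCL6 represses, Cd80 was higher (29 and 188 UMIs) and Gpr183 lower (154 and 100.5 CPM). On the dark zone list (Cxcr4, Foxo1, Polh and Bach2) 0 of 4 genes passed 1.5-fold in either direction, and on the light zone list Icam1 alone of 6 genes was higher. Neither Gpr183 (log2 -0.52) nor Icam1 (0.53) passed 1.5-fold once B cells that met another class rule were left out. In T-like cells, where 16.8% of 9337 genes were higher and 8.03% lower, 7 genes of follicular helper T cells were read. Pdcd1 (42.1 and 83.5 CPM) and Tox2 (4 and 25 UMIs) were higher, Cxcr5, the follicle homing receptor, was lower (27 and 17 UMIs; 13.5 and 5.38 CPM), and the median was 0.00.

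Outside B cells, the 6 genes split into those of the B lineage and those shared by many classes. Rgs13 was found chiefly in the B lineage in the WT-labelled library, with 1 UMI in 335 T-like cells, 1 in 55 ILC2-like cells and 0 in 125 neutrophil-like cells, beside 7 in barcodes that met several class rules. In plasma-like cells, those with at least 20 Jchain UMIs, it had 85 UMIs (12.3 CPM) in the WT-labelled and 0 in the CKO-labelled library. With 3 counts as the floor this was 43.7-fold lower, and the log2 interval reached up to -5.12. Of the 85 UMIs, 84 came from plasma-like cells that also met the B gene minimum. Mef2b was found in plasma-like cells of both libraries (11.4 and 4.60 CPM; log2 -1.32, -1.86 to -0.78) and S1pr2 as well (15.1 and 7.03 CPM; -1.10, -1.55 to -0.66). Of plasma-like cells with B genes, 75 and 44 UMIs of Mef2b came from 362 and 525 cells. In mast-like cells of the CKO-labelled library Rgs13 had 2 UMIs in 80 cells, fewer than the floor of 3 counts.

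S1pr2 and Bcl6 were not particular to the B lineage. S1pr2 in the CKO-labelled library was at 9.95 CPM in neutrophil-like cells (57 UMIs), 7.92 CPM in monocyte and macrophage-like cells and 5.38 CPM in T-like cells, all above the 1.56 CPM of B cells, with intervals that overlapped among those 3 classes. Fibroblast-like cells of that library had 16 UMIs in 34 cells (61.3 CPM), and the WT-labelled library had 0 such cells. In the WT-labelled library S1pr2 was at 15.1 CPM in plasma-like, 12.1 CPM in B and 7.02 CPM in T-like cells, and neighbours in this order had overlapping intervals. Bcl6 was at 28.1 and 23.7 CPM in T-like cells (log2 -0.24, -0.76 to 0.28) and at 16.6 and 24.8 CPM in neutrophil-like cells (0.58, -0.67 to 2.23). In the CKO-labelled library its levels in mast-like, neutrophil-like, T-like, B and NK-like cells (32.2, 24.8, 23.7, 22.7 and 18.9 CPM) had overlapping intervals, and plasma-like cells (6.22 and 1.03 CPM) were lowest in both libraries among classes of at least 50 cells. In the WT-labelled library their interval overlapped that of ILC2-like cells (10.2 CPM, 3 UMIs).

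Myc was highest in ILC2-like and NK-like cells and Cd83 in DC-like cells. Myc stood at 238 and 155 CPM in ILC2-like cells (log2 -0.62, -1.07 to -0.15) and at 247 and 166 CPM in NK-like cells, of which the WT-labelled library had 21. T-like cells had Myc at 53.1 and 39.2 CPM (-0.44, -0.82 to -0.05), and neutrophil-like cells at 0 and 3.49 CPM. Thus Myc was lower in the CKO-labelled library in B, plasma-like, T-like, NK-like and ILC2-like cells, each with an interval below 0. Cd83 was at 933 and 910.5 CPM in DC-like cells (7 and 96 cells), 283 and 333 CPM in monocyte and macrophage-like cells (8 and 303 cells) and 535.5 and 346 CPM in mast-like cells (9 and 80 cells), and these 3 ratios had intervals that held 0. In the CKO-labelled library DC-like cells stood above all other classes, and the intervals of mast-like, monocyte and macrophage-like and B cells (346, 333 and 315 CPM) overlapped between neighbours. Cd83 was higher in the CKO-labelled library in T-like cells (31.1 and 60.1 CPM; log2 0.95, 0.53 to 1.39) and in neutrophil-like cells (19.9 and 54.6 CPM; 1.46, 0.32 to 2.92), and lower in plasma-like cells (49.5 and 26.7 CPM; -0.89, -1.12 to -0.66). The 3 macrophage genes were also higher in the CKO-labelled library in T-like cells (333 and 1031 CPM) and in neutrophil-like cells (4934 and 7643 CPM), and their part in the Cd83 levels was not tested.

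**Figure D5:**
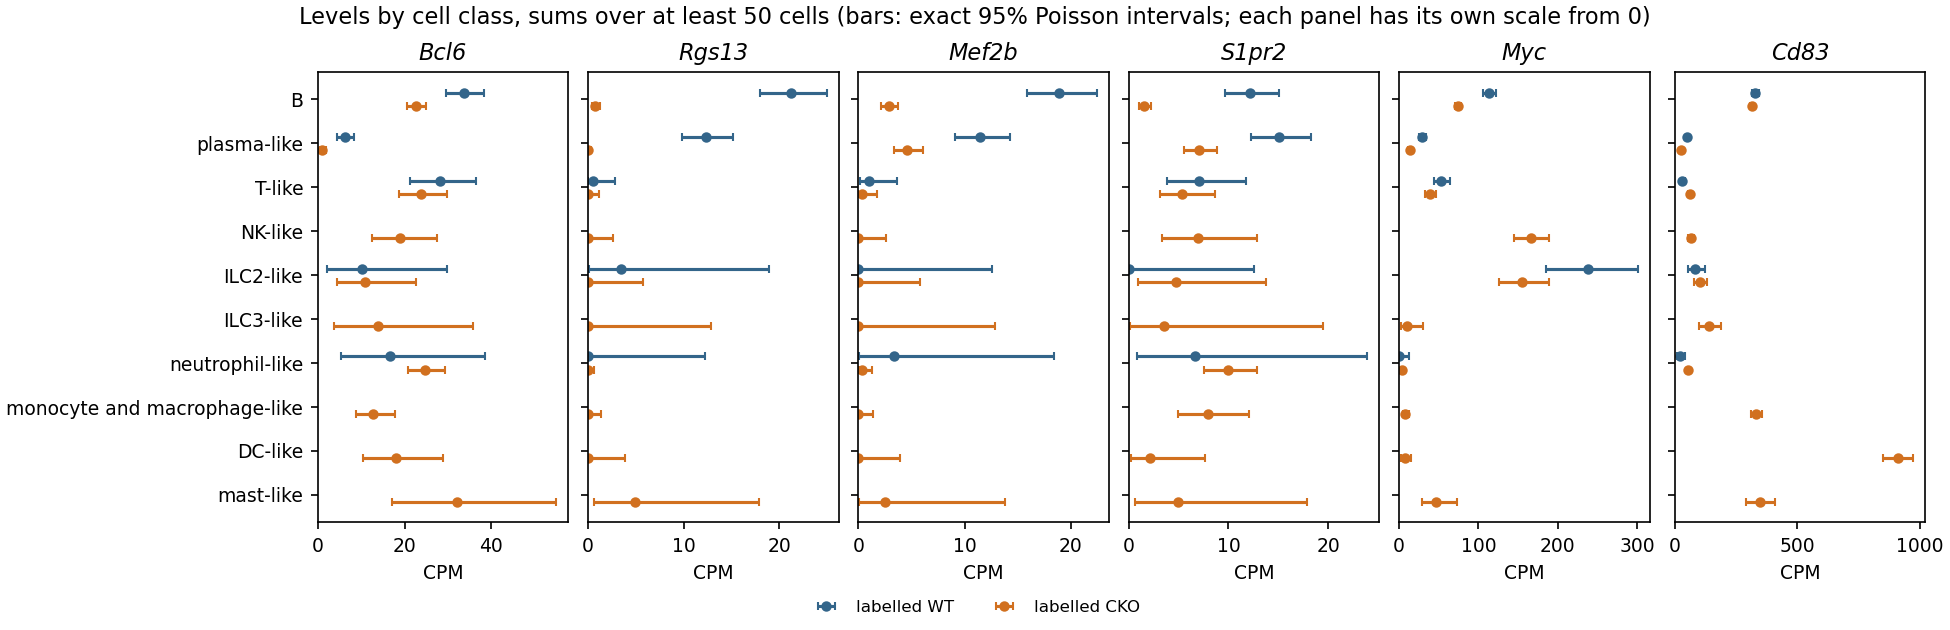
Level in CPM (a linear axis from 0 for each gene) by cell class and library, for class sums of at least 50 cells, with exact 95% Poisson intervals. Rgs13 and Mef2b are high in B and plasma-like cells of the WT-labelled library, Myc peaks in ILC2-like and NK-like cells, and Cd83 reaches 910.5 CPM in DC-like cells of the CKO-labelled library.

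The genes most like each member were sought by Pearson correlation over 15 class and library sums of at least 50 cells, among 9082 genes. The sums of 1 library share its depth and its free RNA, so the values are descriptions. Among the genes closest to Bcl6 were Ppp4r3b (0.93) and Slc44a2 (0.87), and Rgs13 was closest to Mbd4 (0.79), Echdc1 (0.72) and Bcar3 (0.71). Mef2b was closest to Vpreb3 (0.88), Cd79a (0.82) and Bend5 (0.82). Cd79a is part of the B cell receptor and of the class rule, and Vpreb3 a protein of B cells. S1pr2 had no close match (Adprm 0.65, Ttc32 0.64, E2f2 0.63). Myc was closest to Mfng (0.95), Ly9 (0.92) and Taf1d (0.91), and Cd83 to Zbtb18 (0.97), H2-DMa (0.95) and H2-DMb1 (0.94), the last 2 being the subunits of the peptide loader of class II molecules. With ranks in place of values, 1 of 3 genes was shared for each member but S1pr2, for which 0 were.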

How the data were processed

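RNA of colon-infiltrating immune cells was read in 2 libraries (18627050 and 57740083 UMIs in 2972 and 11311 barcodes). The authors deposited unnormalized UMI counts, whole numbers for each gene in each barcode. Cell Ranger 6.0.1 is named per the file headers. Per the submitters' processing notes the tools were Cell Ranger 5.0.0 and Seurat 3.2.3, on mm10. No source used here states a filter before deposit.

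A barcode was left out if under 200 genes were detected (11 and 36 barcodes) or if mitochondrial UMIs exceeded 20% (42 and 130). B cells were called first and plasma-like cells (Jchain at least 20) next. Other classes needed at least 3 UMIs summed over their markers, T-like before NK-like and ILC classes. Barcodes that met several rules (103 and 547) or none (440 and 1702) stayed outside the classes. No doublet caller was run; B cells that met a second rule were left out in an alternative. UMIs were summed per class and library and given as CPM, with Poisson, binomial and conditional intervals (Python 3.11.15, numpy 2.4.6, scipy 1.17.1, pandas 2.3.3, matplotlib 3.10.9).

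Genes of a list were read at 20 UMIs over both sums and counted at 1.5-fold. Named were the 6 genes, up to 4 genes of a list with the largest ratios, the 3 genes most like each member over log2(CPM + 10), and the 10 genes leading the cells with germinal centre genes; other genes in the text were chosen after their values were seen. The 6 genes and the lists were chosen with earlier results of these data known. A few genes are not reported here and were left out of the list counts and marker sums. Ratios and intervals in B cells were tested on simulated data. The outcome is not given here and nothing is drawn from it, and the intervals treat UMIs of the same cell as independent. Alternatives were another J chain limit, another B gene minimum, all barcodes, deeper cells alone, thinning, removal of barcodes that met a second rule, and other fold and count minimums.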

Additional observations from a re-analysis of the deposited data

Results flagged for a closer look

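Bcl6 differed in direction between the libraries: the log2 ratio of cycling over other B cells was 1.21 in the WT-labelled library and -0.53 in the CKO-labelled library. The difference between the libraries was not tested, since each label has 1 library, and the interval of the second value held 0.

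Transcripts were also present in barcodes left out by the filters on genes and mitochondrial share, which the comparisons did not use. Levels there were 48.8 CPM for Bcl6 in the CKO-labelled library (9 UMIs), 72.6 CPM for Myc (4 UMIs) and 72.6 CPM for Cd83 (4 UMIs) in the WT-labelled library, and 27.1 CPM for Myc (5 UMIs) and 59.7 CPM for Cd83 (11 UMIs) in the CKO-labelled library.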

How the results depend on the processing

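For the ratios in B cells and the shares of cells with germinal centre genes, 51 alternative values moved by less than the counting interval of the reported value, 17 moved beyond it, and 0 reversed a called direction. With Jchain under 5 UMIs the log2 ratios were -3.03 (Rgs13), -1.48 (Mef2b) and -1.70 (S1pr2). With no J chain limit, chosen after seeing the data, they were -2.17 (Mef2b), -2.03 (S1pr2), -0.42 (Myc) and 0.20 (Cd83, above 0 there). With cells thinned to 1000 UMIs they were -0.30 (Bcl6), -3.42 (Rgs13), -1.85 (Mef2b), -1.78 (S1pr2) and -0.19 (Cd83). The intervals of these thinned values, which rest on fewer UMIs, held the reported ratios of the same genes. That of Bcl6 (-0.83 to 0.25) also held 0. Without B cells that met another class rule S1pr2 was at -3.87. The share of B cells with germinal centre genes was 4.35 and 0.359% when 2 different genes were required and 0.769 and 0.121% after thinning, against 6.45 and 1.30%; these criteria leave fewer cells by construction, and the cause of the other moves was not tested. Of the other alternative values 101 stayed and 29 moved, with 0 reversed. No paired analysis was possible because each label has 1 library. Counts under about 20 UMIs, such as Rgs13 in the CKO-labelled B cells (15 UMIs), limit the precision of any fold built on them.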

Other observations

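The constant regions of B cells with at least 2 UMIs over Bcl6, Rgs13, Mef2b and S1pr2 differed between the libraries. These sets also differed in make-up. Ighm was at 805 CPM in the WT-labelled set against 1778 CPM in its other B cells, and at 3764 against 2038 CPM in the CKO-labelled library. Igha was lower in both sets than in the other B cells (800.1 against 1939 CPM and 479 against 796 CPM). Ighg1 was higher in both (283 against 16.7 CPM and 23.2 against 1.29 CPM), on 249 UMIs in the WT-labelled and 11 UMIs in the CKO-labelled set. Immunoglobulin transcripts are also carried by free RNA from plasma cells, whose part in these levels was not tested.

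Cd83 was also frequent in barcodes that met no class rule, at 239.8 and 389 CPM (log2 0.70, 0.48 to 0.92). In barcodes that met several rules Myc was at 71.8 and 23.2 CPM (log2 -1.63, -2.06 to -1.19) and Rgs13 had 7 and 6 UMIs.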
